A study of Homo sapiens with 6 samples.

Results

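KHOS and U-2OS, 2 human osteosarcoma cell lines, were compared across the genome with treatment held level between them. The comparison took the 3 KHOS arrays and the 3 U-2OS arrays, which are all 6 arrays of the series. In each line 1 array came from control cells, 1 from cells given the miRSelect pEP-miR-Null plasmid (miR-null) and 1 from cells given miRSelect pEP-miR-1 (miR-1). Each KHOS array was set against the U-2OS array of the same treatment. The plasmids were delivered by lipofection (Lipofectamine LTX with its Plus Reagent) and left for 48 hours, and every array held RNA pooled from 3 flasks. The sources used here do not say what the control cells received. Genes were described if their mean reached the background level in at least 1 line. That level was the median over all probe sets, a log2 value of 5.11, and 13633 of 19775 measured genes met it. Of these, 11825 were above background in both lines, 491 in KHOS alone and 1317 in U-2OS alone.

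KHOS is a derivative of the HOS osteosarcoma line that was transformed with a murine sarcoma virus that carries a Ras oncogene. Ras passes signals through RAF and MEK to ERK, and active ERK switches on a known set of transcription factors, growth factors and feedback inhibitors. U-2OS is an osteosarcoma line known for keeping its telomeres by recombination between them instead of by telomerase. Both lines are taken as models of malignant cells of the bone-forming lineage. Each is 1 established line, so a difference between them is a difference between these lines and not between kinds of tumour.

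The arrays themselves differed by line in a few respects. Medians of the log2 values were 4.98 to 5.02 in KHOS and 5.07 to 5.15 in U-2OS. The interquartile range was 3.24 to 3.35 in KHOS and 2.75 to 3.07 in U-2OS, so U-2OS values were less spread out. Spiked-in hybridization control transcripts, which do not come from the cells, averaged 9.76 to 10.13 on KHOS arrays and 10.81 to 11.65 on U-2OS arrays. Signs of RNA quality separated the lines too: the excess of 3' over 5' signal was 2.68 to 2.90 in KHOS and 2.40 to 2.64 in U-2OS for ACTB, and 0.53 to 0.59 and 0.42 to 0.48 for GAPDH. The part of these array differences in the results was not tested.

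Many genes differed between the lines. With limma, 7480 genes (54.9%) passed a Benjamini-Hochberg adjusted p of 0.05, 4004 higher in KHOS (29.4%) and 3476 higher in U-2OS (25.5%). The total fell to 4667 without the miR-null pair, and to 4680 or 4683 without that array of KHOS or of U-2OS alone. At 2-fold or more there were 3350 genes (24.6%), 2188 higher in KHOS (16%) and 1162 higher in U-2OS (8.52%). The 3 KHOS values lay wholly above or below the 3 U-2OS values for 8922 genes (65.4%), and for 95.2% of the called genes. The median size of the line difference was 0.53 on the log2 scale, while the median size of the change from control to the plasmid arrays, averaged over the lines, was 0.19. The change was averaged with its sign, so opposite changes in the 2 lines cancel in it. It does not hold the difference between miR-1 and miR-null. By these medians the line difference was larger than the change from control to plasmid shared by the lines. A difference of 16-fold or more was fitted for 222 called genes, 146 higher in KHOS and 76 higher in U-2OS. With values below background raised to it, 104 and 42 reached 16-fold. In 149 of the 222 the difference reached 16-fold in each of the 3 treatment pairs.

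The balance between the lines moved with scaling. KHOS was the higher line in 53.5% of called genes and 65.3% of those at 2-fold. After quantile normalization these shares were 42.1% and 50.5%, and the median difference of tested genes moved from -0.04 to -0.19. After cyclic loess normalization they were 50.8% and 59.4%. Individual directions hardly moved: 7426 of 7435 called genes kept their sign after quantile normalization. The difference also moved with expression level. Genes above background in both lines were cut into 5 equal groups by mean level. The median difference was -0.27 in the lowest group and -0.03, 0.24, 0.29 and 0.14 in the next groups up. The part of this offset in the list results below was not tested. RNA was pooled before hybridization, so the p-values measure spread between treatment pairs of pooled arrays and not between cultures. An exact rank test of 3 arrays against 3 cannot give a p below 0.1.

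**Figure D1:**
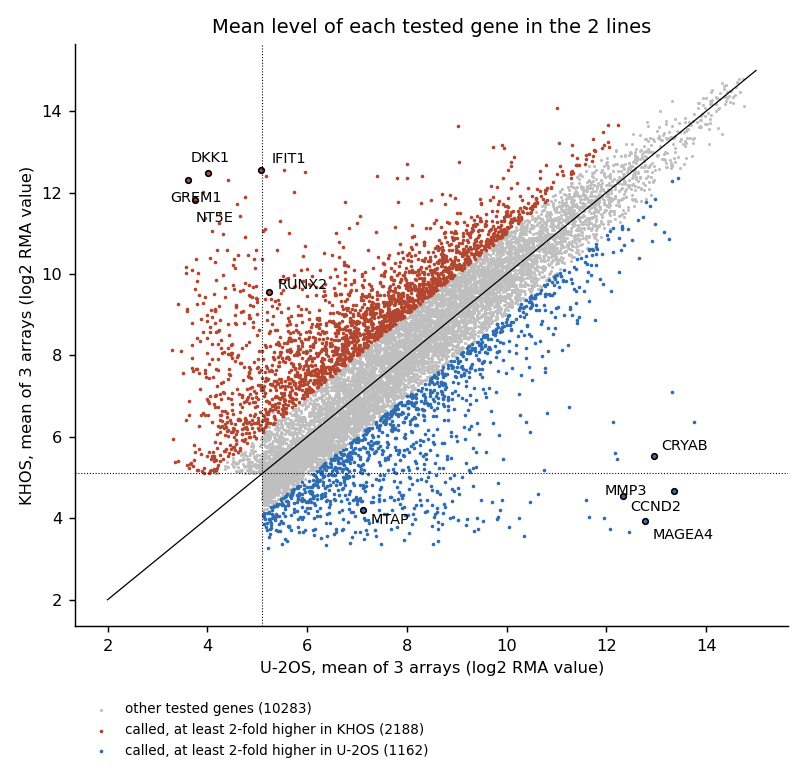
Mean log2 value of each tested gene in U-2OS (x axis, 3 arrays) and KHOS (y axis, 3 arrays). Red points are the 2188 genes called at 2-fold or more higher in KHOS, blue the 1162 higher in U-2OS, grey the other tested genes, and dotted lines mark the background level of 5.11. Points left of the vertical dotted line or below the horizontal one, such as GREM1 and MAGEA4, were above background in 1 line only. CRYAB, at the lower right, was above background in both lines.

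The genes with the largest excess in KHOS were of several kinds, headed by a pair of secreted antagonists. GREM1, a secreted antagonist of bone morphogenetic proteins, read 12.18, 12.21 and 12.53 in KHOS, in the order control, miR-null, miR-1 that is kept for all values given by array. In U-2OS it read 3.54, 3.80 and 3.52, below background on every array. The difference was 8.69 ± 0.17 (log2, SE, limma; adjusted p = 1.5e-06), or at least 147-fold when U-2OS is held at the background level. Folds written as "at least" below were all taken against that level, array by array. DKK1, a secreted Wnt antagonist, read 12.26, 12.44 and 12.73 in KHOS against 3.95, 4.03 and 4.08 in U-2OS (difference 8.46 ± 0.15, at least 165-fold). The 2 lines did not overlap for either gene, and the treatments of a line lay close together.

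Of the next largest, CLDN11, a tight junction claudin, differed by 8.10 ± 0.14 at its brightest probe set (at least 121-fold there). Its other probe set was above background in both lines and differed by 0.70. NT5E, the ectonucleotidase CD73 used as a mesenchymal stromal marker, read 11.57, 11.99 and 11.88 in KHOS, against 3.77, 3.88 and 3.63 in U-2OS (at least 105-fold). SRGN, the proteoglycan serglycin of secretory granules, differed by 7.89 ± 0.15 and NETO2, an accessory subunit of kainate receptors, by 7.24 ± 0.25. UCHL1, a ubiquitin hydrolase best known from neurons, differed by 7.24 ± 0.16 and was above background in both lines (151-fold). CYP1B1, a cytochrome P450 that metabolizes oestrogens and polycyclic compounds, differed by 7.15 ± 0.21. CTHRC1, a secreted collagen triple helix repeat protein, differed by 7.11 ± 0.22, FMNL2, a formin that elongates actin filaments, by 6.97 ± 0.17 and PRSS23, a serine protease, by 6.77 ± 0.21. KLF4, a zinc finger transcription factor, read 10.25 in the KHOS control array and 11.82 and 12.06 with a plasmid, against 3.88 to 4.03 in U-2OS. The remaining 3 of the 15 largest, IFIT1, IFIT2 and IFI44L, belong to the interferon response described further on.

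The genes with the largest fitted excess in U-2OS included 5 cancer-testis antigens of the MAGE family, which in adults are normally read in germ cells and are silent in most other tissues. MAGEA4 read 12.93, 12.90 and 12.51 on the U-2OS arrays and 4.08, 3.87 and 3.85 in KHOS. The difference was -8.85 ± 0.15 (KHOS minus U-2OS, log2, SE; limma adjusted p = 1.5e-06), at least 205-fold. MAGEA6 differed by -8.78 ± 0.14, MAGEA12 by -8.33 ± 0.14, MAGEA1 by -7.93 ± 0.15 and MAGEB2 by -7.13 ± 0.16. All 3 KHOS arrays were below background for each of these 5 genes. The probe sets of MAGEA6, MAGEA12 and MAGEA1 are of the x_at kind, which can take signal from related transcripts, so signal may be shared among these MAGEA genes.

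The other genes of the U-2OS side were varied. MMP3, the matrix protease stromelysin 1, read 12.10 in the U-2OS control array and 14.07 and 13.88 with a plasmid, against 4.50 to 4.89 in KHOS. By the bound against background it stood first on the U-2OS side (at least 303-fold). CCND2, the D-type cyclin that drives the G1 phase with CDK4 and CDK6, read 12.87, 12.18 and 11.97 in U-2OS and 4.38, 4.59 and 4.65 in KHOS (at least 150-fold). All 4 CCND2 probe sets were lower in KHOS, by 1.12 to 7.80. CRYAB, a small heat shock protein, differed by -7.42 ± 0.24, DHRS2, a short-chain dehydrogenase, by -7.40 ± 0.64 and SUN3, a nuclear envelope protein of germ cells, by -7.60 ± 0.25. DHRS2 was at 4.36 in the KHOS control array but 6.80 and 7.92 in the KHOS plasmid arrays. EPB41L3, a membrane skeleton protein, differed by -6.78 ± 0.14, BEX1 by -6.75 ± 0.14 and LINC00520, a long non-coding RNA, by -6.57 ± 0.43. NEFL, the light neurofilament chain, differed by -6.28 ± 0.21 and CSTA, the protease inhibitor cystatin A, by -6.23 ± 0.15.

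**Figure D2:**
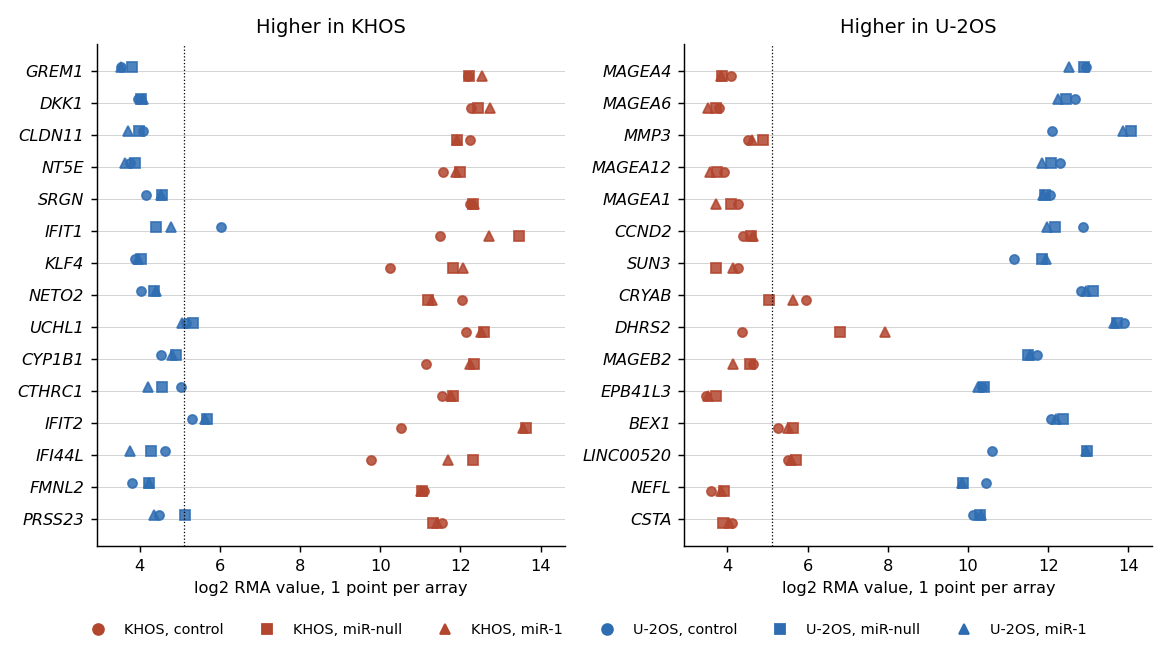
Log2 value on each array of the 15 genes with the largest called difference in each direction (KHOS red, U-2OS blue; circle control, square miR-null, triangle miR-1). The dotted line is the background level of 5.11. The lines do not overlap for any of the 30 genes, and IFIT1, IFIT2, IFI44L, KLF4, DHRS2, MMP3 and LINC00520 also spread by treatment within a line.

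Across the cancer-testis list 32 of 46 symbols were measured. None was called higher in KHOS and 14 were called higher in U-2OS, 10 of them at 2-fold or more, while 15 were below background in both lines. Calls were 0.0% and 82.4% of the tested members, beside 29.4% and 25.5% of all tested genes. The median over the 32 was -0.45, beside -0.12 over all measured genes. With values below background raised to it, the medians were -0.07 and 0.0, since 15 members then stood at 0 in both lines. Members read in U-2OS and not in KHOS came from several families. MAGEA11 differed by -5.15, MAGEA8 by -5.08, DDX43, an RNA helicase, by -3.64, MAGEC1 by -3.20 and SPANXB1, a sperm protein, by -2.08. These 5 were added to the text after their values were seen. PRAME, also outside the naming rule, was read in both lines and was lower in KHOS by 0.94 on the log2 scale. BRDT, SYCP1, CTCFL, DAZL and DDX4, all germ cell genes, were below background in both lines.

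The promoters of 2 of these antigens are shown because silent MAGE promoters are known to carry methylated CpG sites. Each is the 300 bases around the transcription start in RefSeq (GRCh38.p14), most of them before it, printed 5′ to 3′ on the gene's strand, and capitals mark each CG. MAGEA6 lies at chrX:152769640-152769939 on the minus strand and holds 19 CG, and MAGEB2 at chrX:30215313-30215612 on the plus strand and holds 21. Methylation was not measured.
MAGEA6: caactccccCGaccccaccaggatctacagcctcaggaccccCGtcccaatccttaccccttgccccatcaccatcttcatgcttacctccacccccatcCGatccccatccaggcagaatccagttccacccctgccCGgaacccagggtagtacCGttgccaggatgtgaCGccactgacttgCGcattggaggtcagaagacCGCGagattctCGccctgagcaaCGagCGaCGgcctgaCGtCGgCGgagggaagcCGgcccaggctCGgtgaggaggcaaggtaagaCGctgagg
MAGEB2: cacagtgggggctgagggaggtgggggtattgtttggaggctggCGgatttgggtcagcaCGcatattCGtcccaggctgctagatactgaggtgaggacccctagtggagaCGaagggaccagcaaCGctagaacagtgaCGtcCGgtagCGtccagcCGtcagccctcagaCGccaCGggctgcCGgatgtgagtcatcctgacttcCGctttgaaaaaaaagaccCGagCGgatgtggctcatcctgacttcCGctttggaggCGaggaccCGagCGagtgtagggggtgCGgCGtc

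The interferon response list differed more than any other of the 42 lists by its median. It holds genes that type I interferon induces through STAT and IRF factors and that block virus replication or sense viral RNA. Of 38 measured members 34 were called higher in KHOS, all at 2-fold or more, and 0 higher in U-2OS. The other 4 were BST2, ISG20 and LGALS3BP, not called with differences of 1.43, 0.52 and -0.09, and GBP2, below background in both lines. The calls were 91.9% and 0.0% of the tested members, beside 29.4% and 25.5% of all tested genes. The list median was 4.32, and 4.28 with values below background raised to it. It was 2.61 in the control pair, 5.47 in the miR-null pair and 4.63 in the miR-1 pair.

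IFIT1, which binds viral RNA, read 11.48 in the KHOS control array and 13.46 and 12.72 with miR-null and miR-1. In U-2OS it read 6.04 in control and 4.40 and 4.78 with a plasmid (difference 7.48 ± 0.61, adjusted p = 0.000188). IFIT2, of the same family, read 10.51, 13.63 and 13.56 in KHOS, against 5.30, 5.68 and 5.64 in U-2OS (7.03 ± 0.52). IFI44L read 9.76, 12.31 and 11.69 in KHOS, against 4.64, 4.28 and 3.77 in U-2OS (7.02 ± 0.55). CMPK2, a mitochondrial nucleotide kinase, differed by 6.60 ± 0.54. For all 4 genes every KHOS array was above every U-2OS array, and the KHOS control array was the lowest of the KHOS arrays. The KHOS control array thus already held these transcripts at a level no U-2OS array reached.

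The start regions of IFIT1 (chr10:89392373-89392672, plus strand) and IFI44L (chr1:78620198-78620497, plus strand) are shown for the element through which interferon acts. Capitals mark GAAA, any 2 bases and GAAA again on either strand, a core of the interferon-stimulated response element. Each promoter holds 2 matches. The same letters were found in 3.57% of the 35116 promoters of the table and in 2.64% of those of tested genes with a promoter entry. Of the 146 genes at 16-fold or more higher in KHOS, 117 had an entry and 18 of them (15.4%) held a match, beside 1 of 51 (1.96%) at 16-fold or more higher in U-2OS.
IFIT1: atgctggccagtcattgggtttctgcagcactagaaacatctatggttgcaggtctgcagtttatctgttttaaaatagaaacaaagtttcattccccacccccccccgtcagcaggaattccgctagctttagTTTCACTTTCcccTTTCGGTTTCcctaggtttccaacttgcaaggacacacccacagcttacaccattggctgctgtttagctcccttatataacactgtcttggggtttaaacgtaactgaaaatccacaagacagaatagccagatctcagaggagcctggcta
IFI44L: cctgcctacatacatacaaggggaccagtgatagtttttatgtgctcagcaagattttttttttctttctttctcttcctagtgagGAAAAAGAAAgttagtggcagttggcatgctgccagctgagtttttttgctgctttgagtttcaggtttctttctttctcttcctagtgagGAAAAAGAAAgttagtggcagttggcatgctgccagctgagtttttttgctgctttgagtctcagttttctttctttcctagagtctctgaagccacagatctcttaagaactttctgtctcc

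Genes known to follow ERK activity were mostly higher in KHOS. Of 38 measured members of the RAS-ERK output list, 24 were called higher in KHOS and 6 higher in U-2OS. At 2-fold or more there were 19 and 3. The 24 and 6 were 64.9% and 16.2% of the tested members, beside 29.4% and 25.5% of all tested genes. The list median was 1.13, against -0.12 over all measured genes, and stayed at 0.94 after quantile normalization. DUSP6, the phosphatase that removes phosphate from ERK, read 11.33, 10.81 and 10.81 in KHOS, against 4.54, 4.25 and 4.16 in U-2OS. Its difference was 6.66 ± 0.14 (adjusted p = 2.16e-06), at least 58.7-fold, and the lines were far from overlapping. ETV1, a PEA3-type ETS transcription factor, read 9.42, 9.63 and 9.37 in KHOS against 4.15, 4.08 and 3.27. Its other 3 probe sets differed by 0.47, 0.42 and 0.59, and the first of these was above background in both lines. DKK1, described above, is also on this list. PLAU, the urokinase plasminogen activator, read 12.72, 12.66 and 12.71 against 8.28, 7.86 and 7.87 (25.8-fold).

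The feedback inhibitors of the pathway, named here after their values were seen, did not all go the same way. DUSP4 was higher in KHOS by 4.44, SPRY2 by 3.46, SPRY4 by 3.47, SPRY1 by 1.96 and SPRED1 by 1.21. SPRED2 was lower in KHOS by 0.56 and SPRED3 by 0.96, and DUSP7 was not called. Among the ligands of the EGF receptor, TGFA ran the other way: it read 4.56, 4.40 and 4.57 in KHOS, against 8.56, 7.79 and 7.35 in U-2OS (at least 6.93-fold higher in U-2OS). MYEOV was lower in KHOS by 2.41 and UPP1, uridine phosphorylase, by 2.31. The proteins of the pathway itself showed small differences, with 4 of 19 called in each direction (2 and 5 after quantile normalization) and a median of -0.08. MRAS was the only one of these 8 at 2-fold or more, lower in KHOS by 2.43. Of the 16 tested members 25.0% were called in each direction, beside 29.4% and 25.5% of all tested genes.

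**Figure D3:**
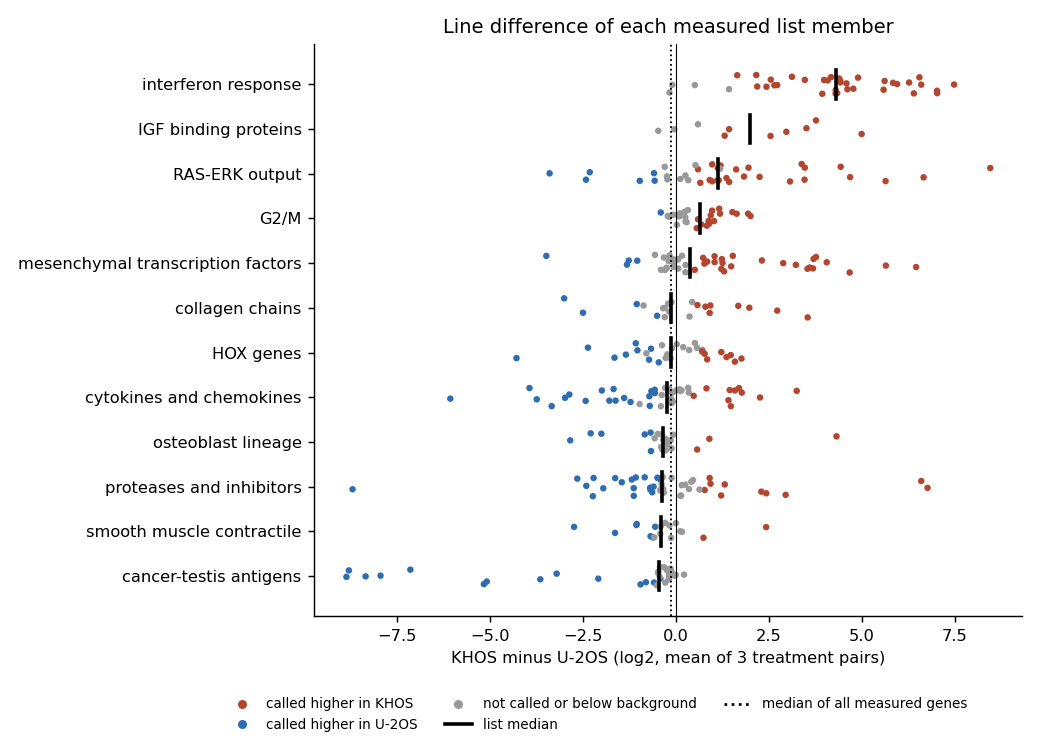
Line difference (KHOS minus U-2OS, log2, mean of 3 treatment pairs) of each measured member of 12 lists, ordered by list median (black bars). Red points were called higher in KHOS, blue higher in U-2OS, grey not called or below background, and the dotted line is the median of all measured genes, -0.12. The interferon response (4.32), the IGF list (1.99) and RAS-ERK output (1.13) have the medians farthest to the right, and the cancer-testis points run farthest to the left.

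The 2 lines differed at single genes of the G1 checkpoint. Of 22 tested p53, RB and G1 regulators, 7 were called higher in KHOS and 8 higher in U-2OS. These were 31.8% and 36.4%, beside 29.4% and 25.5% of all tested genes. CDKN2A, which encodes the CDK4 and CDK6 inhibitor p16, read 4.84, 4.75 and 4.80 in KHOS, below background. In U-2OS it read 5.19, 5.63 and 5.74, just above background, with a difference of -0.72 ± 0.17 (adjusted p = 0.0127), and the means of its other 2 probe sets were below background in both lines. That call was lost when the miR-null pair (limma adjusted p = 0.0917) or the miR-1 pair (0.0581) was left out. CDKN2B, the neighbouring inhibitor gene, was below background in both lines. MTAP, the methionine salvage enzyme encoded beside them on chromosome 9, read 4.28, 4.39 and 3.96 in KHOS, against 7.62, 7.08 and 6.68 in U-2OS (at least 4.06-fold). Of the other 5 MTAP probe sets, 3 were also lower in KHOS, by 1.94 to 2.96, and 2 differed by -0.10 and -0.06. RB1, the brake on E2F that p16 protects, was higher in KHOS at 10.25, 9.90 and 9.87 against 8.81, 8.13 and 7.79 (3.39-fold).

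Cyclins were split between the lines. CCND2 and CCNE1, which was lower in KHOS by 1.47, went to the U-2OS side. CCNE2 was higher in KHOS by 3.68, RBL1, the RB relative p107, by 2.70 and CCND1 by 1.63. CDKN1C, the inhibitor p57, was lower in KHOS by 1.16. CDKN1A, the inhibitor p21, read 9.23, 10.11 and 10.20 in KHOS, against 10.32, 10.66 and 10.76 in U-2OS, lower in KHOS by 0.73. MDM2, a ubiquitin ligase, was not called, with a difference of 0.31 (95% interval -0.13 to 0.74) that became -0.01 after quantile normalization.

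Differences among telomere genes were small, with 2 of 17 at 2-fold or more. TERT, the catalytic subunit of telomerase, read 5.40, 5.58 and 5.43 in KHOS, against 5.53, 5.50 and 5.30 in U-2OS, close to background and overlapping. Its difference was 0.03 (95% interval -0.32 to 0.37). Of the 17 measured telomere genes 5 were called higher in KHOS and 2 higher in U-2OS. The shares were 29.4% and 11.8%, beside 29.4% and 25.5% of all tested genes. The counts became 2 and 3 after quantile and 3 and 3 after cyclic loess normalization. TERF1 and POT1, subunits of the shelterin cap, were higher in KHOS by 1.15 and 1.12. ATRX, a chromatin remodeller often lost in cells that use recombination at telomeres, gave conflicting probe sets. The brightest, 208861_s_at, was higher in U-2OS, at 10.17, 9.65 and 9.58 against 9.19, 9.03 and 8.97. On the KHOS arrays probe set 208859_s_at stood at 8.70, 8.80 and 8.44, but on the U-2OS arrays at 3.54, 3.59 and 3.64, a difference of 5.05 the other way. The other 2 differed by -0.21 and -0.07. Of the 3 ATRX probe sets that were bright in KHOS, 208859_s_at alone was below background in U-2OS, where 208860_s_at averaged 8.93. DAXX, the partner of ATRX, was lower in KHOS by 0.48.

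Many markers of the bone-forming lineage were below background in both lines. Of 23 measured osteoblast lineage genes, 13 were below background in both lines (median -0.34, and 0.0 with values below background raised to it). Of the 10 tested ones 3 were called higher in KHOS and 6 higher in U-2OS, beside 29.4% and 25.5% of all tested genes. Mean values over the list were 5.53 to 5.66 on the KHOS arrays and 5.88 to 5.97 on the U-2OS arrays. SP7, the osteoblast master regulator osterix, ALPL, bone alkaline phosphatase, and IBSP, bone sialoprotein, were below background in both lines. COL1A1, the main bone collagen, was well above background in both, at 10.93, 10.14 and 10.07 in KHOS, against 12.07, 10.78 and 10.30 in U-2OS. It overlapped between the lines and its call in U-2OS (adjusted p = 0.0293) was lost without the treatment block (0.217) and without the miR-null pair (0.0868). SPP1, osteopontin, read 5.65, 6.13 and 5.36 in KHOS, against 6.57, 8.82 and 8.60 in U-2OS. BMP2 and BMP4, growth factors that induce bone, were lower in KHOS by 2.83 and 2.00.

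RUNX2, the transcription factor that starts osteoblast differentiation, was the clearest exception on the KHOS side. At the brightest probe set it stood at 8.98, 9.85 and 9.83 on the KHOS arrays, against 6.74, 4.72 and 4.23 for U-2OS (4.32 ± 0.60, adjusted p = 0.00151). No KHOS array overlapped a U-2OS array. Another probe set, 221282_x_at, was lower in KHOS by 0.60, and the means of the other 4 RUNX2 probe sets were below background in both lines. Markers of other lineages were read as well. Above background in both lines were 5 of 13 blood, 3 of 10 endothelial, 9 of 13 epithelial and 7 of 11 neural markers, beside 9 of 23 osteoblast genes and 11825 of all 19775. Mean values of the blood list were 4.78 to 4.86 in KHOS and 4.92 to 5.29 in U-2OS, at or near background. Single epithelial and neural genes differed: EPCAM was higher in KHOS by 2.89 and SOX2 by 1.86, and KRT8, a keratin of simple epithelia, was lower by 3.11. Of the 4 SOX2 probe sets, 2 went the other way, with KHOS below background.

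Transcription factors of mesenchyme and neural crest set the lines apart. Of 49 measured, 24 were called higher in KHOS, 20 at 2-fold or more, and 4 higher in U-2OS, with 15 below background in both. Of the tested ones 70.6% and 11.8% were called, beside 29.4% and 25.5% of all tested genes. The median was 0.37. TWIST1, a bHLH factor of mesenchymal cells, averaged 10.03 ± 0.05 (SD, n = 3) in KHOS and read 3.30, 4.05 and 3.37 in U-2OS (6.46 ± 0.18, at least 30.5-fold). ZIC2 and ZIC1, zinc finger factors of the dorsal neural tube and somites, were higher in KHOS by 5.65 and 4.68, and ZEB2, a repressor of epithelial genes, by 4.06. EMX2, a homeobox factor, read 3.60, 3.72 and 3.80 in KHOS, against 6.93, 7.51 and 7.11 in U-2OS. SNAI1, another repressor of epithelial genes, was lower in KHOS by 1.03, FOXD1 by 1.26 and NFIA by 1.31, the last not called after cyclic loess normalization (limma adjusted p = 0.0546).

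HOX genes, which give cells a positional identity along the body axis, differed at single genes and little as a list. Of 41 listed symbols 30 were measured, and the HOXA cluster was represented by HOXA2 alone, below background in both lines. Calls were 8 higher in KHOS and 9 higher in U-2OS among 25 tested genes, beside 29.4% and 25.5% of all tested genes, with a median of -0.12 that became 0.04 after cyclic loess normalization. In the HOXD cluster HOXD10 read 9.63, 8.68 and 8.79 in U-2OS and 4.18, 5.16 and 4.93 in KHOS (-4.28 ± 0.36), and HOXD11 was lower in KHOS by 2.36. HOXD13, at the end of the same cluster, ran the other way, at 6.12, 6.81 and 6.72 in KHOS, against 5.08, 4.96 and 4.84 in U-2OS, as did HOXD4 (1.37). In the HOXB cluster HOXB6 and HOXB7 were higher in KHOS by 1.77 and 1.48 while HOXB9 was lower by 1.64. In the HOXC cluster HOXC13 was lower in KHOS by 1.34. Neighbouring HOX genes thus differed in opposite directions in the HOXB and HOXD clusters.

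**Figure D4:**
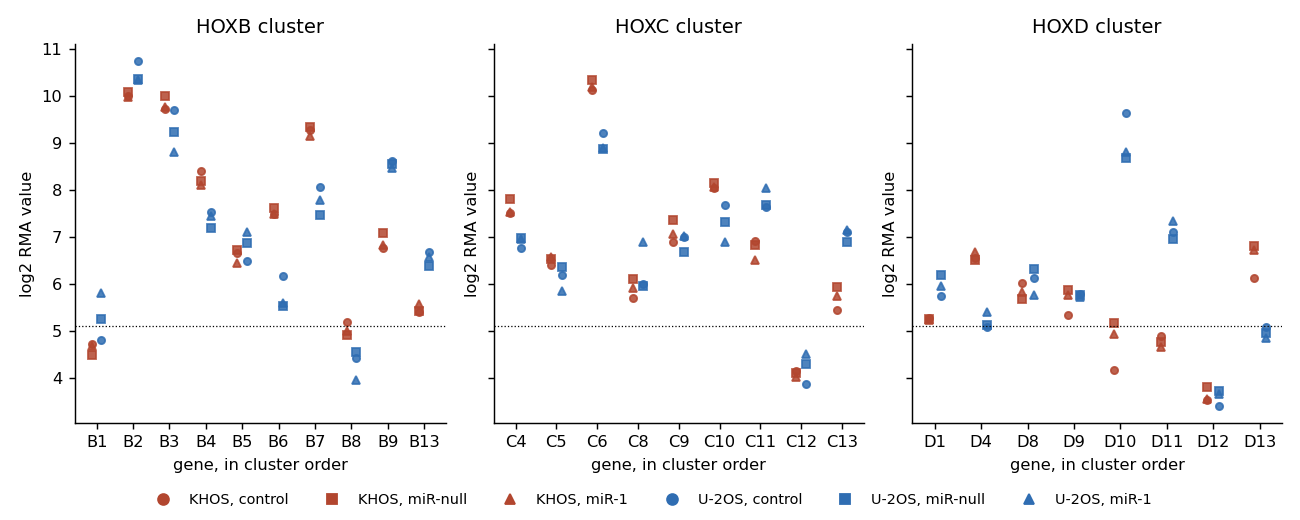
Log2 value on each array of the measured HOXB, HOXC and HOXD genes in cluster order (KHOS red, U-2OS blue; circle control, square miR-null, triangle miR-1), with the background level dotted. HOXD10 and HOXD11 stand higher in U-2OS and HOXD13 higher in KHOS.

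Matrix genes held large single differences in both directions. Of 21 collagen chains 8 were called higher in KHOS and 4 higher in U-2OS, 57.1% and 28.6% of the tested ones. COL5A2, a fibrillar chain, read 10.12, 8.66 and 8.70 in KHOS, against 6.55, 4.98 and 5.30 in U-2OS (3.55 ± 0.14), and COL6A3 was higher in KHOS by 2.73. COL12A1, a fibril-associated chain, was 7.98-fold higher in U-2OS, and COL16A1 was lower in KHOS by 2.49. Of 48 matrix glycoproteins and proteoglycans 11 were higher in KHOS and 15 in U-2OS, 26.8% and 36.6% of the tested ones, beside 29.4% and 25.5% of all tested genes. LAMA1, the laminin chain of early basement membranes, read 10.45, 10.71 and 10.73 in U-2OS and 4.43, 4.67 and 4.71 in KHOS (-6.03 ± 0.14, at least 46.1-fold). The fibrillins were split, FBN1 higher in KHOS by 2.36 and FBN2 lower by 3.26. CCN3, a matricellular protein, was lower in KHOS by 4.47 and GPC6, a glypican, by 3.88.

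Adhesion and surface genes were called in both directions. Integrins were called higher in KHOS for 7 of 19 genes and higher in U-2OS for 6 (38.9% and 33.3% of those tested), with 6 and 2 at 2-fold or more. ITGA4, the partner of ITGB1 in binding fibronectin and VCAM1, was higher in KHOS by 3.64, and ITGA1 and ITGA2, collagen-binding chains, by 3.17 and 2.26. CDH11, osteoblast cadherin, read 11.10, 10.08 and 10.18 in KHOS, against 6.17, 4.16 and 4.09 in U-2OS (5.65 ± 0.24). GJB2, a connexin, was higher in KHOS by 4.25 and PKP2, a desmosome protein, lower by 2.48. Of 41 stromal surface antigens 9 were higher in KHOS and 8 in U-2OS, 30.0% and 26.7% of the tested ones, beside 29.4% and 25.5% of all tested genes. After NT5E the largest were THBD, thrombomodulin (5.47), CAVIN3, a caveolar coat protein (5.05), and CD24 (4.74). F3, tissue factor, was lower in KHOS by 2.79 and THY1, the stromal marker CD90, by 1.66. Smooth muscle contractile genes leaned to U-2OS, 2 called higher in KHOS and 7 in U-2OS of 18 (median -0.41). That was 12.5% and 43.8% of the tested ones, beside the same 29.4% and 25.5%. TAGLN was lower in KHOS by 2.73 and CNN1 by 1.63, while MYLK, myosin light chain kinase, was higher by 2.43.

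Secreted proteases and cytokines were called more often higher in U-2OS. Mean values over the cytokine list were 5.33 to 5.82 on the KHOS arrays and 6.14 to 6.18 on the U-2OS arrays. The part of the offset with expression level in this lean was not tested. Of 47 proteases and inhibitors 10 were called higher in KHOS and 19 in U-2OS (median -0.38, and -0.19 with values below background raised to it). These were 22.7% and 43.2% of the tested ones, beside 29.4% and 25.5% of all tested genes. Of 44 cytokines and chemokines 10 and 18 were called, 29.4% and 52.9% of the tested ones (median -0.22, and -0.03 with values raised). MMP2, a gelatinase, was lower in KHOS by 2.64, while ANPEP, the surface aminopeptidase CD13, was higher by 6.60 and MMP13, a collagenase, by 2.96. IL18, a cytokine released after inflammasome activation, read 11.13, 10.10 and 10.17 in U-2OS and 4.13, 4.64 and 4.45 in KHOS (at least 41.1-fold). IL13RA2, a decoy receptor, was lower in KHOS by 3.93, IL7R by 3.73 and IL32 by 3.33. CXCL11, a chemokine induced by interferon, was higher in KHOS by 3.25, CXCL2 by 2.27 and IL6 by 1.70. ERAP1, which trims peptides for presentation, was higher in KHOS by 4.37. Of 25 antigen presentation genes 5 were called higher in KHOS and 2 in U-2OS (26.3% and 10.5% of those tested). These became 4 and 5 after quantile and 5 and 4 after cyclic loess normalization.

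Growth factor systems differed gene by gene, with the IGF list as the exception. Of its 10 measured genes 7 were called higher in KHOS, all at 2-fold or more, and 0 in U-2OS (median 1.99). The shares were 70.0% and 0.0%, beside 29.4% and 25.5% of all tested genes. IGFBP2, IGFBP1 and IGFBP3, secreted carriers of insulin-like growth factors, were higher in KHOS by 3.77, 3.52 and 2.97, with U-2OS below background at these probe sets. Another IGFBP3 probe set was above background in both lines and differed by 0.50. IGF2BP3, which the list holds by name but which binds mRNA and not the growth factor, read 12.48, 12.35 and 12.37 in KHOS, against 6.72, 7.68 and 7.81 in U-2OS. In the Wnt list 12 of 32 genes were higher in KHOS and 6 in U-2OS (54.5% and 27.3% of those tested). Among those higher in KHOS were the receptors FZD2 (3.72) and FZD7 (3.44), the antagonist SFRP1 (3.39) and the ligand WNT5A (2.83). LEF1, a nuclear effector of Wnt signals, was lower in KHOS by 1.80. In the TGF-beta and BMP list calls were 13 and 12 of 36 (36.1% and 33.3%), and 11 and 12 after quantile normalization. Beside GREM1, the BMP antagonists were split: CHRDL1 was higher in KHOS by 2.78 and NOG, noggin, lower by 2.75. ID4, a target of BMP signals, was lower in KHOS by 3.33 and BAMBI, a pseudoreceptor, by 2.34.

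Receptors and guidance cues also carried large single differences. PDGFRA, a receptor of platelet-derived growth factors, read 9.26, 8.27 and 8.12 in KHOS, against 5.55, 5.11 and 5.06 in U-2OS (9.93-fold). EGFR was higher in KHOS by 2.88 at its brightest probe set and by 2.78 and 1.58 at 2 others. Probe sets 1565483_at and 1565484_x_at went the other way, by -2.42 and -2.26, so the EGFR signal depended on the stretch of transcript read. Among ligands EFNB2, an ephrin, was higher in KHOS by 4.85 and VEGFC by 3.95, and FGF1 and FGF2 were lower by 2.78 and 2.07. NTN4, a netrin, was higher in KHOS by 5.08, its fellow guidance gene NRP1, a semaphorin and VEGF receptor, by 4.74 and SEMA3A by 4.22. In the Notch list 6 of 20 genes were higher in KHOS and 9 in U-2OS, 31.6% and 47.4% of the tested ones. Over all tested genes the shares were 29.4% and 25.5%. MAML3, a Notch coactivator, was higher in KHOS by 3.90.

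Imprinted, metabolic and transport genes held further marks of identity. PEG10 and MEST, both paternally expressed and on chromosome 7, were higher in KHOS by 5.68 and 4.63. PLAGL1, NDN and PEG3, also paternally expressed, were lower in KHOS by 5.65, 3.95 and 3.66. ABCB1, the multidrug efflux pump P-glycoprotein, read 8.41, 8.31 and 8.15 in U-2OS and 4.35, 4.17 and 4.45 in KHOS (at least 9.11-fold). GSTM3, a glutathione transferase, was higher in KHOS by 4.10, AKR1C3 by 3.25 and CYP24A1, which degrades vitamin D, lower by 3.37. MT1M was the only one of 9 metallothioneins called, higher in KHOS by 5.82. Among calcium-binding proteins S100A6 was higher in KHOS by 3.07 and ANXA3 lower by 5.18.

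Genes of G2 and mitosis leaned to KHOS. Mean values over the list were 10.10 to 10.75 on the KHOS arrays and 9.31 to 10.24 on the U-2OS arrays. The part of the offset with expression level in this lean was not tested. Of 28 measured G2/M genes 16 were called higher in KHOS, 7 at 2-fold or more, and 1 higher in U-2OS. The median was 0.65, and 0.40 after quantile normalization. Called shares were 57.1% and 3.6%, beside 29.4% and 25.5% of all tested genes. The DNA replication and G1/S list did not share this: 7 of 23 genes (30.4%) were higher in KHOS and 4 in U-2OS, and its median of 0.27 became -0.01 after quantile normalization. KIF11, a mitotic kinesin, read 10.55, 9.87 and 9.75 in KHOS, against 9.29, 7.86 and 6.99 in U-2OS, so the U-2OS plasmid arrays were low. MKI67, the proliferation marker Ki-67, was higher in KHOS by 1.95 and AURKB, a mitotic kinase, by 1.64. Oxidative phosphorylation genes were called higher in KHOS for 11 of 28 and higher in U-2OS for 4 (39.3% and 14.3%, median 0.24). Of 15 reference housekeeping genes 4 were higher in KHOS and 2 in U-2OS (26.7% and 13.3%, median 0.11), with GUSB the largest at 1.16.

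Line differences were unevenly spread over the chromosomes. On chromosome 13, 55.6% of 234 tested genes were called higher in KHOS and 11.1% higher in U-2OS. Over its 189 genes above background in both lines the median difference was 0.73, and it was 0.51, 0.77 and 0.87 in the control, miR-null and miR-1 pairs. Chromosome 18 followed, with 48.2% and 20.8% of 197 tested genes. Chromosome 22 lay at the other end, with 6.72% of 357 tested genes higher in KHOS, 45.9% higher in U-2OS and a median of -0.38. RB1, GJB2, SPRY2, ZIC2 and EFNB2, all higher in KHOS, lie on chromosome 13, as does GPC6, which was lower. Copy number was not measured.

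**Figure D5:**
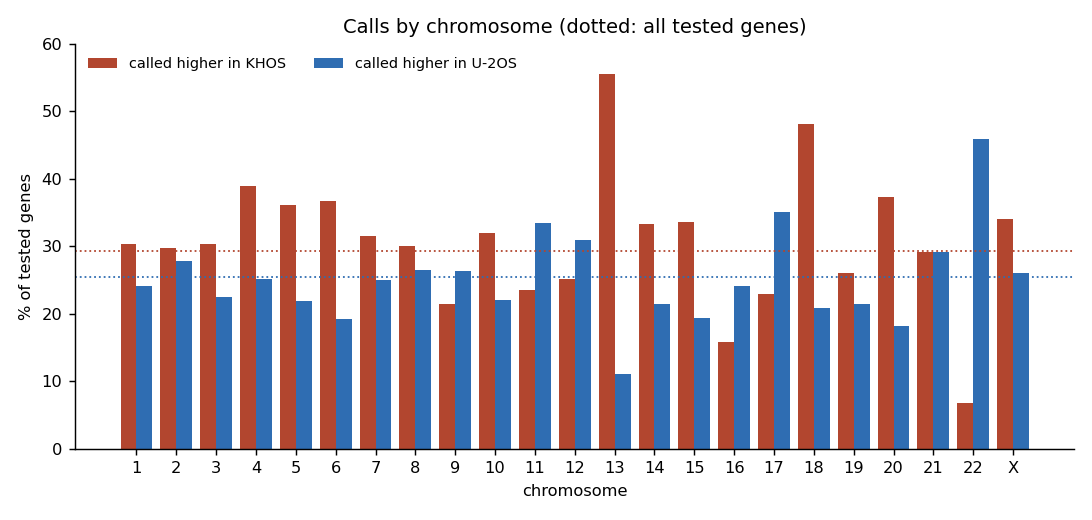
Share of the tested genes of each chromosome called higher in KHOS (red) and higher in U-2OS (blue), with the shares over all tested genes dotted (29.4% and 25.5%). Chromosomes 13 and 18 have the tallest red bars and chromosome 22 the tallest blue bar.

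Runs of neighbouring genes were described in windows of 21 tested genes in RefSeq order, with the windows chosen by their medians. On the KHOS side the window with the highest median ran from C8orf88 to PLEKHF2 on chromosome 8, with 18 of 21 genes called higher in KHOS and a median of 2.26. It holds CCNE2 and PLEKHF2 (4.21). A window from AP4E1 to MNS1 on chromosome 15 had a median of 1.69, and one from UBAC2-AS1 to IRS2 on chromosome 13 had 1.65, with IRS2, an adaptor of the insulin receptor, higher in KHOS by 5.20. On the U-2OS side a window from PEX5 to KLRK1-AS1 on chromosome 12 had a median of -1.23. From MKS1 to HEATR6 on chromosome 17, 18 of 21 genes were called higher in U-2OS and 0 had a positive difference (median -1.05). CCND2 and TIGAR lie in a window from NINJ2-AS1 to TIGAR on chromosome 12 (median -0.87, 15 called higher in U-2OS), with TIGAR, a regulator of glycolysis, lower in KHOS by 1.71. CRYAB and IL18 lie in a window from FDX1 to NCAM1 on chromosome 11 (median -0.79). A window from HIRA to SCARF2 on chromosome 22 had a median of -0.87 with 17 called higher in U-2OS.

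A stricter rule picked genes whose brightest probe set was read in 1 line only. All 3 arrays of 1 line had to reach the 75th percentile of probe sets, 7.08, and all 3 of the other line had to stay below 5.11. This left 124 genes for KHOS and 87 for U-2OS. Other probe sets existed for 75 and 43 of them, and for 19 and 5 at least 1 of these had a mean above background in the other line, as for CLDN11, ETV1 and CCND2. On the X chromosome lay 14 of the 87 U-2OS genes and 2 of the 124 KHOS genes, beside 444 of all 13633 tested genes. The 14 held MAGEA1, MAGEA4, MAGEA6, MAGEA8, MAGEA11, MAGEA12, MAGEB2 and MAGEC1. CpG content of their promoters was counted next, as a description. The median was 28 CG in the 101 KHOS genes with a promoter entry, 18.5 in the 60 U-2OS genes and 26 in 10936 tested genes. Under 10 CG were held by 13.9%, 33.3% and 15.2% of them. The ETS core CCGGAA, on either strand, was in 8.91% of the KHOS set and 13.3% of the U-2OS set. It was in 27.9% of tested genes and 17.2% of all promoters in the table. The interferon element core shown above was in 5.94% of the KHOS set and 3.33% of the U-2OS set, beside 2.64% of tested genes. Among genes called at 16-fold or more, the CG contrast was smaller. There the medians were 23 CG on the KHOS side and 19 on the U-2OS side, with 22.2% and 29.4% under 10 CG.

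For some genes the line difference itself was not the same in the control pair and the plasmid pairs. Plasmid and lipofection cannot be told apart here, since what the control cells received is not known. With limma 284 of 13633 genes (2.08%) passed the test of whether KHOS minus U-2OS was the same in the control pair and the 2 plasmid pairs, and 2984 had an unadjusted p under 0.05. KHOS minus U-2OS, taken with its sign, moved up with a plasmid for 246 genes and down for 38. The sign does not tell whether the gap between the lines widened. PRR9, among those that moved down, went from -1.04 in control to -6.10 and -6.25. Each line had 1 control array, so 1 array carries each of these values. The number also moved with scaling, to 17 after quantile and 98 after cyclic loess normalization, and from 6 to 1696 as plasmid arrays were left out in turn. Leaving out a KHOS array gave 6 genes (miR-null) or 7 (miR-1), and leaving out a U-2OS array gave 1696 (miR-null) or 557 (miR-1).

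Interferon response genes made up 22 of the 284. IFIH1, the RNA sensor MDA5, read 7.76 in the KHOS control array and 10.78 and 10.30 with miR-null and miR-1, while in U-2OS it read 5.87 and then 4.20 and 4.06. The pair difference was 1.89 in control, 6.58 with miR-null and 6.24 with miR-1. For TRIM22, IFI27, RSAD2 and DDX60L the pair difference was also larger with either plasmid than in control. Each was higher with a plasmid in KHOS, and all but RSAD2 were lower with a plasmid in U-2OS. MMP1, interstitial collagenase, showed the largest change in the other direction. It read 10.61, 10.53 and 10.26 in KHOS. In U-2OS it read 5.77 in control and rose by 5.25 on average with a plasmid, so the lines differed by 4.84 in control and by -0.52 and -0.74 with a plasmid. PRR9, CCDC30, LINC01516 and IL1A stood between 3.95 and 5.85 in the U-2OS control array and between 7.76 and 10.27 in both U-2OS plasmid arrays. RUNX2 was among the 284 too, since U-2OS fell from 6.74 in control to 4.72 and 4.23.

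Other probe sets of the same gene give a check within the same RNA. For called genes with further probe sets above background, 5101 of 6331 (80.6%) had the sign of the chosen one, and at 2-fold or more 2532 of 2972 did (85.2%). ATRX, EGFR and RUNX2 show that the exceptions can be large. Further probe sets differed far less than the brightest one for UCHL1 (1.10), PDGFRA (0.25) and LAMA1 (-0.96), with all of these means above background except that of LAMA1 in KHOS. A further GSTM3 probe set, above background in both lines, differed by 0.05. Further probe sets of RBL1 and ERAP1 differed by 0.61 and 0.49, with U-2OS below background there. Other ERAP1 probe sets differed by 1.23 and 2.70.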

How the data were processed

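Gene expression was measured on 6 Affymetrix U133 Plus 2.0 arrays, 1 for each of 2 lines and 3 treatments, each a pool of 3 flasks. The authors deposited log2 values made with RMA, per the labels' design text and the submitters' processing notes, and these values were used as deposited, from 2.83 to 14.90. The number of arrays limits the precision. Genome build and annotation of that step are not given in the sources used here.

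Of 54675 probe sets, 62 controls were left out, and an annotation table gave 41091 probe sets 1 symbol, 1801 several and 11721 none. Of those with 1 symbol 41031 matched RefSeq by Entrez identifier. A gene with several probe sets was represented by the one brightest on average, and genes whose mean reached 5.11 in at least 1 line were tested. Lines were compared with limma (version 3.58.1, R 4.3.3; lmFit followed by eBayes, treatment plus line, 2 residual degrees of freedom, 6.49 after moderation), and the plasmid question with a line by plasmid term. The scripts were tested on simulated data with known differences. The labels carry no replicate numbers, so arrays were paired by treatment. Alternatives were other scalings, filters, probe set choices, no treatment block, a rank test and leaving out each array or pair.

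Members, gene lists and rules were chosen with earlier results of these data known. Named were the 15 largest called differences in each direction with non-overlapping lines, leaving out genes that tell the donor's sex, up to 4 called members of each list in each direction, a set of genes known to define such lines, and up to 5 line by plasmid genes in each direction. Folds against a line below background count that line at 5.11. Gene order and promoter sequences came from RefSeq (GRCh38.p14); 10936 of 13633 tested genes had a promoter entry.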

Additional observations from a re-analysis of the deposited data

Results flagged for a closer look

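The line difference changed between the control pair and the plasmid pairs for 284 genes (limma, line by plasmid term, adjusted p below 0.05), and the 5 largest in each direction are given here. The values are the difference with a plasmid minus that without, on the log2 scale, with 1 control array in each line.

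The difference KHOS minus U-2OS was larger with a plasmid by 4.85 ± 0.64 (SE) for TRIM22, 4.52 ± 0.31 for IFIH1, 3.81 ± 0.29 for IFI27, 3.79 ± 0.38 for RSAD2 and 3.58 ± 0.38 for DDX60L. All of them are induced by interferon. TRIM22 rose by 3.65 in KHOS from control to plasmid and changed by -1.20 in U-2OS.

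In the other direction the values were -5.47 ± 0.26 for MMP1, -5.14 ± 0.23 for PRR9, -3.91 ± 0.24 for CCDC30, -3.21 ± 0.28 for LINC01516 and -2.56 ± 0.29 for IL1A. For MMP1 the U-2OS arrays changed by 5.25 and the KHOS arrays by -0.22.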

How the results depend on the processing

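Over the named genes, 863 recomputed line differences kept their direction and side of the threshold, 58 lost the call, 6 gained one and 3 reversed, and 716 of 798 list medians moved by less than the spread between pairs. The 3 reversals were MMP1, not called at 1.20 over all pairs, which ranged from -0.63 without the control array of either line or the control pair to 2.16 without a miR-1 array. The exact Mann-Whitney test with 1.2-fold gave 0 genes in every count, since 3 against 3 arrays cannot go below 0.1. With every probe set as its own feature (24612 tested) the counts were 13079 called, 7674 higher in KHOS and 5405 in U-2OS, and at 2-fold 6267, 4435 and 1832. The 75th percentile filter gave 2044 higher in U-2OS, and background in both lines gave 756 at 2-fold higher in U-2OS. Leaving out arrays or pairs, called genes ranged from 4667 (without the miR-null pair) to 9359 (without the control pair), those higher in U-2OS from 1868 to 4486, those higher in KHOS from 2799 to 4876, and plasmid-dependent genes from 6 to 1696. The last count was 17 after quantile normalization, 98 after cyclic loess and 890 with a mean-dependent prior variance. Leaving out 1 array also drops its partner from the paired fit. Of the called named genes, none changed sign under either normalization. No paired analysis by replicate number was possible because the labels carry none; treatment was the block, and without it 7459 genes were called, 7069 of them among the 7480. Pooled RNA and 1 array per line and treatment limit the precision.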
